A study of Mus musculus with 22 samples.

Results

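The glutamate and glutamine handling of Müller glia was described through 5 genes, taken by name from the 44792 genes of the RNA count table. They are Glul (glutamine synthetase), Slc1a3 (the glutamate transporter GLAST), Slc1a2 (the glutamate transporter GLT-1), Slc38a3 (the glutamine transporter SNAT3) and Glud1 (mitochondrial glutamate dehydrogenase). All 5 passed the filter on low counts and were tested. Müller glia are the radial support cells of the retina. Glutamate released by retinal neurons is cleared from the extracellular space by sodium-coupled transporters, GLAST being the main one of Müller cells. Inside the cell, glutamine synthetase joins glutamate and ammonia into glutamine, SNAT3 can release that glutamine for neurons to use again, and glutamate dehydrogenase instead feeds the carbon of glutamate into the citric acid cycle.

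RNA was sequenced from 3 libraries of Müller cells taken 2 days after an injection of NMDA into the vitreous of young mice (NMDA cells), 3 libraries of retinal progenitor cells of embryonic day 12.5 (RPCs), 2 libraries of Müller cells of mice aged 1.5 years (aged cells) and 2 libraries of Müller cells of untreated mice aged 2 to 3 months (young cells). NMDA overstimulates glutamate receptors and so injures neurons of the inner retina. All mice were C57BL/6. The Müller cells of all 3 groups had been sorted by the fluorescence of a GFP reporter of Rlbp1, a retinoid carrier gene of these cells, and no sort is stated for the RPCs. DNA methylation was measured by reduced representation bisulfite sequencing (RRBS), which reads cytosines in CpG-rich fragments, in 3 libraries of each of the 4 groups. The labels do not say how many animals or pools a library stands for.

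RNA libraries held 15867733 to 17968517 counts for NMDA cells, 11067405 to 14520423 for RPCs, 33213893 and 36486072 for aged cells, and 10149390 and 15202738 for young cells. The young libraries stood apart from the others, with 13913 and 14919 genes detected against 20920 to 23618 in the other 8, and with a correlation of 0.884 between them (log2 CPM) against 0.962 to 0.994 within the other groups. Levels are given as CPM, counts scaled to a common library total, which allow 1 gene or list to be compared between libraries. The summed level of 20 Müller markers was 24470, 19524 and 24817 CPM in NMDA cells, 2632 to 2720 CPM in RPCs, 31936 and 31224 CPM in aged cells and 36233 and 33157 CPM in young cells, while 12 progenitor markers summed to 8575 to 8888 CPM in RPCs and 1345 to 2487 CPM in all Müller libraries. Of other cell types, 13 microglia and macrophage markers summed to 358, 3837 and 765 CPM in NMDA cells, 62.8 to 77.9 CPM in RPCs, 85.6 and 102 CPM in aged cells and 13.2 and 89.3 CPM in young cells, so that NMDA replicate 2 was high. The 14 photoreceptor markers summed to 7758 to 12464 CPM in NMDA cells, 29.1 to 37.2 CPM in RPCs, 5971 and 9080 CPM in aged cells and 10378 and 15231 CPM in young cells, and 15 inner retinal neuron markers summed to 468 to 813, 301 to 399, 390 and 396, and 260 and 325 CPM in the same order of groups. The 5 astrocyte markers summed to 1281 to 1558 CPM in NMDA cells, 18.3 to 28.4 CPM in RPCs, 230 and 289 CPM in aged cells and 214 and 248 CPM in young cells, with Gfap and Aldh1l1 the 2 highest in NMDA cells and Pax2 at 1.46 CPM or less in NMDA cells, 13.0 to 19.2 CPM in RPCs and 0 in both young libraries. The 8 vascular markers summed to 2411 to 3452 CPM in NMDA cells, 244 to 255 CPM in RPCs, 2648 and 2748 CPM in aged cells and 3104 and 3145 CPM in young cells, with Kdr and Pdgfrb holding most of it and the endothelial genes Pecam1, Cdh5, Cldn5 and Tek at 0 in both young libraries. The part of these co-varying cell markers in the changes below was not tested. In such bulk samples a change in the share of a cell type and a change of RNA per cell cannot be told apart.

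By the mouse reference annotation (GRCm38.p6), Glul lies on chromosome 1 at 153899929 to 153909723 (plus strand), Slc1a3 on chromosome 15 at 8634124 to 8710807 (minus strand), Slc1a2 on chromosome 2 at 102658239 to 102790784, Slc38a3 on chromosome 9 at 107651154 to 107668968, and Glud1 on chromosome 14 at 34310727 to 34345033. All are protein-coding. The 250 bases before the annotated starts of Glul and Slc1a3 are shown because their starts carried the most RRBS positions beside Slc1a2 and because they differ in CpG content (RefSeq, GRCm38.p6, chr1:153899679-153899928 plus strand and chr15:8710808-8711057 minus strand, CpGs in capitals).
Glul: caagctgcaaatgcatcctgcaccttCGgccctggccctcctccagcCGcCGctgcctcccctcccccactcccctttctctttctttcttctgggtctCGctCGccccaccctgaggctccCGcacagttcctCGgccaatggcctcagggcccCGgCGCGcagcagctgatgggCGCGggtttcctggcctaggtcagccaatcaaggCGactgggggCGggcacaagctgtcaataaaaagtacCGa
Slc1a3: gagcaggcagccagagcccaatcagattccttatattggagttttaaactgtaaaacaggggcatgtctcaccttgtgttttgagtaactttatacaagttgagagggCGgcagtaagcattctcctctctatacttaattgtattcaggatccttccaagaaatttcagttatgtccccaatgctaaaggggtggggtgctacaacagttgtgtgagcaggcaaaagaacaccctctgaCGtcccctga
The Glul stretch held 15 CpGs, of which the 8 nearest the start were measured by RRBS, and 27.5% of 32536 mouse promoters of that length held as many or more. The Slc1a3 stretch held 2 CpGs, neither of them measured, and 81.4% of promoters held as many or more. The letters CCAAT occurred 2 times in the Glul stretch on the strand shown and not on the other. In the Slc1a3 stretch they occurred 2 times on the strand shown and 1 time on the other, and 33.8% of the promoters hold them on either strand. The matching stretch of Glud1 held 46 CpGs, a number reached by 0.326% of promoters.

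Glul, the enzyme that makes glutamine, was lower after NMDA and very low in RPCs, while aged and young cells did not differ beyond their spread. It stood at 4530, 2610 and 4586 CPM in NMDA cells, 519, 551 and 528 CPM in RPCs, 25224 and 26429 CPM in aged cells, and 33663 and 26680 CPM in young cells. NMDA libraries and RPC libraries each lay below every aged and young library, and NMDA replicate 2 was the lowest of its group. As a share of all counts, Glul took 0.261% to 0.459% in NMDA cells, 0.0519% to 0.0551% in RPCs, 2.52% and 2.64% in aged cells, and 3.37% and 2.67% in young cells. In edgeR's quasi-likelihood test with Benjamini-Hochberg adjustment over 18931 genes, Glul fell 7.17-fold in NMDA cells against young cells (log2 -2.84 ± 0.26 standard error, adjusted p = 8.3e-05) and 6.99-fold against aged cells (log2 -2.81 ± 0.26, adjusted p = 2.9e-04). Without NMDA replicate 2, the library high in microglia markers, the difference from young cells was log2 -2.62 (adjusted p = 4.1e-05). RPCs were 62.1-fold lower than young cells (log2 -5.96 ± 0.29, adjusted p = 6.4e-07) and NMDA cells 8.66-fold higher than RPCs (log2 3.11 ± 0.25, adjusted p = 9.0e-06). The log2 difference between aged and young cells was -0.04, with a 95% interval of -0.68 to 0.60 (adjusted p = 0.97).

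Slc1a3, the transporter that takes up most glutamate in Müller cells, did not pass the test between any pair of the 3 Müller groups and was low in RPCs. It stood at 2355, 2041 and 2284 CPM in NMDA cells, 65.7, 78.1 and 66.5 CPM in RPCs, 2232 and 2074 CPM in aged cells, and 2998 and 2791 CPM in young cells. Both young libraries lay above every other library, and NMDA and aged libraries overlapped. The log2 difference of NMDA from young cells was -0.27 ± 0.12, with a 95% interval of -0.55 to 0.00 (adjusted p = 0.099). It passed the threshold in 4 other settings, with log2 -0.33 under RLE scaling (adjusted p = 0.048), -0.49 under upper-quartile scaling (0.016), -0.31 with a filter of 5 CPM (0.044) and -0.33 in DESeq2 (0.0015), so the call depends on the setting while the sign does not. Aged cells differed from young cells by log2 -0.24 (95% interval -0.54 to 0.07, adjusted p = 0.23), a difference that DESeq2 called at log2 -0.28 (adjusted p = 0.021). NMDA and aged cells differed by log2 -0.03 (95% interval -0.31 to 0.24, adjusted p = 0.89). In RPCs Slc1a3 was 45.3-fold lower than in young cells (log2 -5.50 ± 0.14, adjusted p = 5.7e-08).

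Slc1a2, the second astroglial glutamate transporter, was the member that rose with NMDA and with age. It stood at 672, 604 and 765 CPM in NMDA cells, 3.37, 3.89 and 3.58 CPM in RPCs, 2668 and 3112 CPM in aged cells, and 309 and 262 CPM in young cells. No group overlapped another, and the order from high to low was aged, NMDA, young and RPC. Aged cells were 11.5-fold above young cells (log2 3.53 ± 0.17, edgeR adjusted p = 3.9e-06), and NMDA cells 2.57-fold above them (log2 1.36 ± 0.15, adjusted p = 2.1e-04). NMDA cells were 4.49-fold below aged cells (log2 -2.17 ± 0.14, adjusted p = 4.7e-05). RPCs were 86.6-fold below young cells (log2 -6.44 ± 0.17, adjusted p = 6.2e-08). Leaving out any single library kept the aged difference between log2 3.40 and 3.68 and the NMDA difference between 1.23 and 1.52. The annotated span of Slc1a2 holds 2 lncRNA genes, LOC115489466 and Gm13872, neither of which is in the count table. Among genes whose span contains another annotated gene, 40% were called higher in aged cells and 47.7% in NMDA cells against young cells, compared with 15.5% and 26.5% of other genes, and the part of this in the Slc1a2 rise was not tested.

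Slc38a3, which moves glutamine across the plasma membrane, was lower after NMDA and low in RPCs. It stood at 482, 325 and 508 CPM in NMDA cells, 44.6, 62.4 and 41.0 CPM in RPCs, 886 and 862 CPM in aged cells, and 1008 and 1440 CPM in young cells. NMDA libraries lay below all aged and young ones, and the young pair were wide apart. The fall against young cells was 2.59-fold (log2 -1.37 ± 0.23, edgeR adjusted p = 0.0020), and it was log2 -1.20 without NMDA replicate 2 (adjusted p = 0.0043). Against aged cells it was 2.11-fold (log2 -1.08 ± 0.23, adjusted p = 0.014), a call that was lost without aged replicate 1 (log2 -1.05, adjusted p = 0.085) or aged replicate 2 (log2 -1.10, adjusted p = 0.081). Aged and young cells differed by log2 -0.29 (95% interval -0.89 to 0.30, adjusted p = 0.47). RPCs were 27.2-fold below young cells (log2 -4.76 ± 0.26, adjusted p = 1.1e-06).

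Glud1, which breaks glutamate down in mitochondria, varied least. It stood at 218, 207 and 199 CPM in NMDA cells, 146, 140 and 140 CPM in RPCs, 182 and 181 CPM in aged cells, and 220 and 198 CPM in young cells. RPC libraries were below all Müller libraries, and NMDA and young libraries overlapped. The 95% intervals of the log2 difference were -0.11 to 0.31 for NMDA against young cells (adjusted p = 0.40), -0.24 to 0.22 for aged against young cells (adjusted p = 0.97) and -0.09 to 0.32 for NMDA against aged cells (adjusted p = 0.44). In RPCs it was 1.61-fold lower than in young cells (log2 -0.69 ± 0.09, adjusted p = 2.2e-04).

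**Figure D1:**
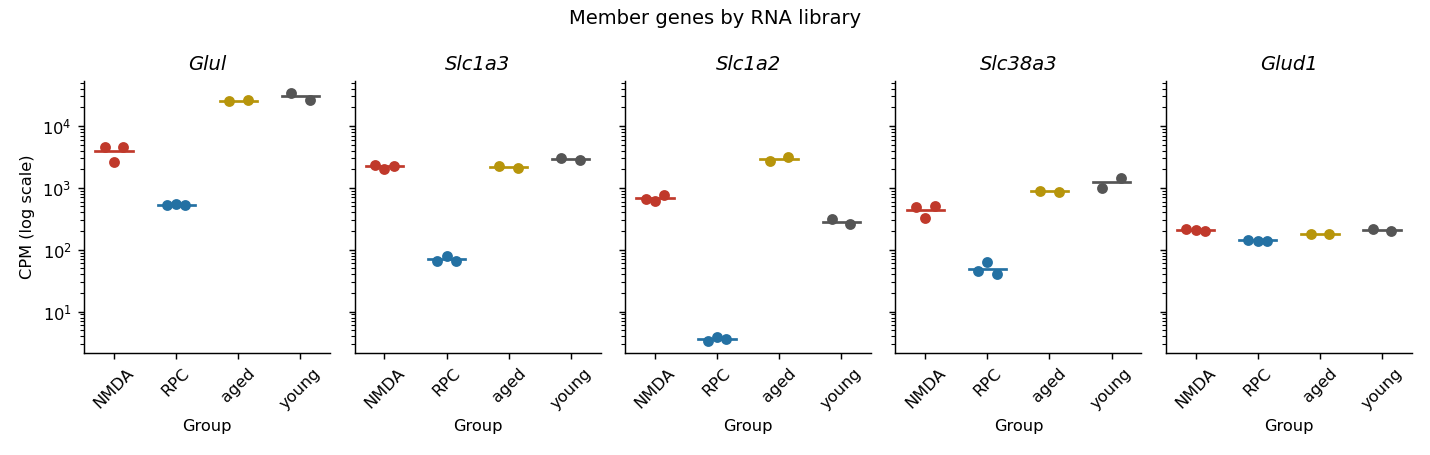
CPM of the 5 members in each of the 10 RNA libraries, on a log axis, with the group mean as a line (NMDA and RPC 3 libraries, aged and young 2). Slc1a2 runs from about 3.61 CPM in RPCs to 2890 CPM in aged cells, whereas Glud1 lies between 140 and 220 CPM in every library.

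Set against all genes, 3 of 5 members passed in NMDA against young cells (Slc1a2 higher, Glul and Slc38a3 lower), where 44.9% of all tested genes passed, 30.6% higher and 14.3% lower. Between aged and young cells 1 of 5 passed, where 27% of all genes did, 21.1% higher and 5.85% lower. Between RPCs and young cells all 5 were lower, where 60.8% of all genes passed, 35.9% higher and 24.9% lower. Between NMDA and aged cells 3 of 5 were lower, where 20.3% of all genes passed and 9.8% were lower. The 5 were also lower in RPCs than in aged cells (29% of all genes lower) and higher in NMDA cells than in RPCs (31.9% of all genes higher), with Slc1a2 at log2 -9.96 and 7.80 and Glud1 at log2 -0.68 and 0.79. The comparisons with young cells share the same 2 young libraries and are not independent. Under upper-quartile scaling the calls over all genes became 5094 higher and 3825 lower in NMDA cells, instead of 5795 and 2702, and 3527 higher and 1848 lower in aged cells, instead of 3997 and 1108, while the same number of members passed in aged cells and Slc1a3 joined the lower ones in NMDA cells. That scaling moved the median log2 difference of all genes between NMDA and young cells to 0.04, against 0.26.

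**Figure D2:**
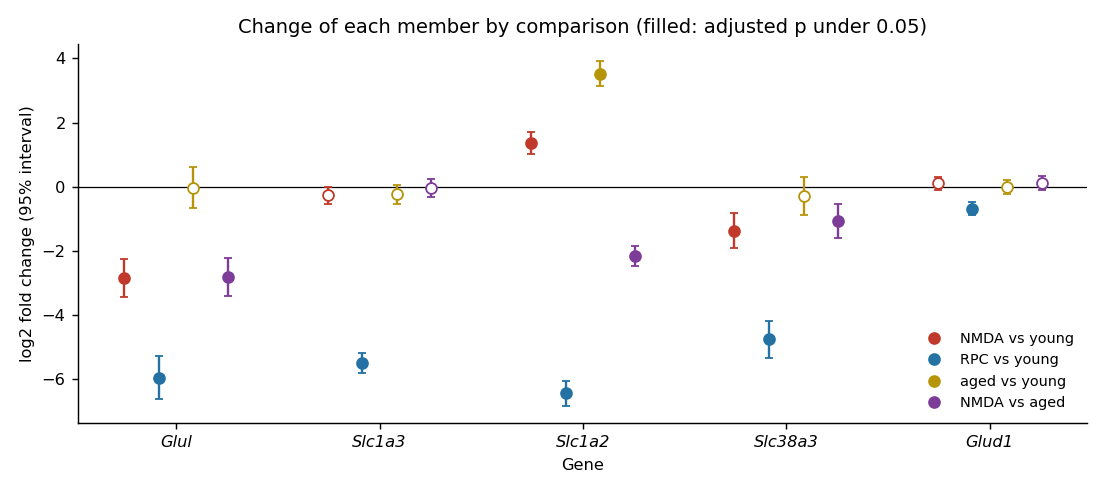
Log2 fold change of each member with its 95% interval in the comparisons of NMDA, RPC and aged cells with young cells and of NMDA with aged cells, filled where the adjusted p was under 0.05. Slc1a2 is above 0 in NMDA (1.36) and aged (3.53) cells against young cells, while Glul is below 0 in NMDA cells (-2.84) and near 0 in aged cells (-0.04).

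Ratios between members within 1 library do not depend on its depth or scaling. Their absolute size also reflects transcript length, so only their differences between groups are read. The ratio of Slc1a2 to Slc1a3 counts was 0.286, 0.296 and 0.335 in NMDA libraries, 0.0514, 0.0498 and 0.0539 in RPC libraries, 1.20 and 1.50 in aged libraries, and 0.103 and 0.0937 in young libraries. The mix of the 2 glutamate transporters thus differed between all groups without overlap, with the highest share of Slc1a2 in aged cells. The ratio of Glul to Slc1a3, the synthesising enzyme against the uptake transporter, was 1.92, 1.28 and 2.01 in NMDA libraries, 7.90, 7.06 and 7.94 in RPC libraries, 11.3 and 12.7 in aged libraries, and 11.2 and 9.56 in young libraries. It was lowest after NMDA, below the RPCs as well. Against Rlbp1, the gene whose reporter was used for the sort, Glul stood at 3.49, 4.05 and 3.55 in NMDA libraries, 8.16 and 9.45 in aged libraries and 7.94 and 8.04 in young libraries, so Glul was lower after NMDA relative to this gene too. Rlbp1 itself fell after NMDA (log2 -1.70 against young cells, edgeR adjusted p = 0.0054). It was among the 8 of the 20 Müller markers that fell, while 2 rose. These are 40% and 10% of the markers, where 14.3% and 30.6% of all genes fell and rose. Slc38a3 against Rlbp1 was 0.372, 0.504 and 0.393 in NMDA libraries, 0.286 and 0.308 in aged libraries and 0.238 and 0.434 in young libraries, so relative to that gene Slc38a3 was not lower after NMDA. Slc1a3 against Rlbp1 was 1.82, 3.17 and 1.77 in NMDA libraries, 0.722 and 0.742 in aged libraries and 0.707 and 0.841 in young libraries. Slc1a2 against Rlbp1 was 0.519, 0.937 and 0.592 in NMDA libraries, 0.863 and 1.11 in aged libraries and 0.073 and 0.0788 in young libraries. By that ratio NMDA and aged libraries overlapped, and both lay above the young ones. In RPCs Rlbp1 averaged only 4.48 CPM, and Glul against it was 76.9, 139 and 195.

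**Figure D3:**
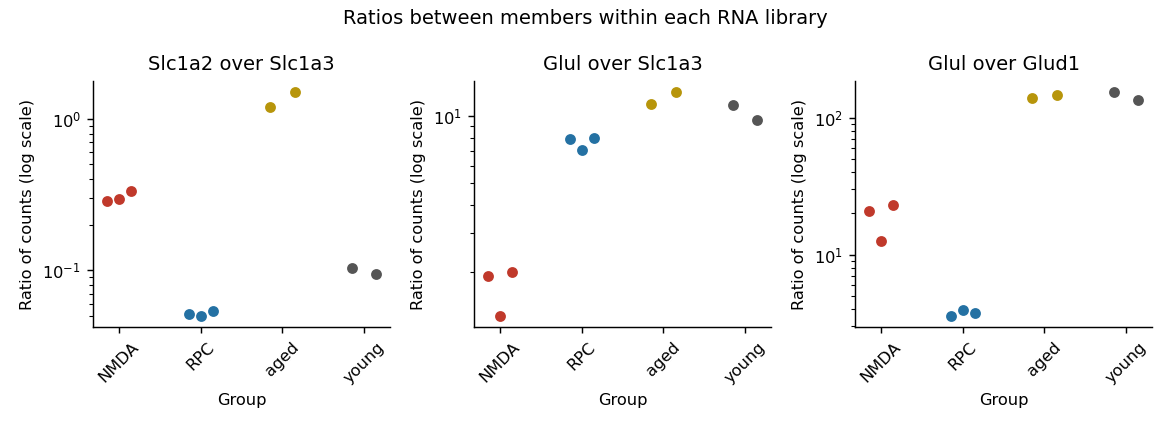
Ratios of counts within each RNA library on log axes, for Slc1a2 over Slc1a3, Glul over Slc1a3 and Glul over Glud1, 1 point per library. The Slc1a2 to Slc1a3 ratio is highest in the aged libraries (1.20 and 1.50), and the Glul to Slc1a3 ratio is lowest in the NMDA libraries (1.28 to 2.01).

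Of 50 other genes of glutamate and glutamine metabolism, 49 were tested. In NMDA cells 15 rose and 6 fell against young cells, which is 30.6% and 12.2% of the list where 30.6% and 14.3% of all genes did, and the median log2 was 0.50 beside 0.26 over all genes. Upper-quartile scaling gave 11 higher and 10 lower, and a fit of NMDA and young libraries alone 9 and 3. Between aged and young cells 11 were higher and 4 lower, which is 22.4% and 8.16% where 21.1% and 5.85% of all genes were (median 0.11 beside 0.13). In an edgeR fit of the aged and young libraries alone none of these calls was left, with 0 higher and 0 lower of 47 genes tested, 14 of them at an unadjusted p under 0.05, while DESeq2 on all libraries called 12 and 5. Over all genes that fit called 322 higher and 19 lower, and it kept Slc1a2 (log2 3.51, adjusted p = 0.014). Between RPCs and young cells 17 were higher and 23 lower, which is 34.7% and 46.9% where 35.9% and 24.9% of all genes were (median -0.46 beside 0.30). Between NMDA and aged cells 4 were higher and 10 lower, which is 8.16% and 20.4% where 10.5% and 9.8% of all genes were (median 0.30 beside 0.04). That balance turned with the setting, with 8 higher and 10 lower under a filter of 5 CPM, 12 and 10 in DESeq2, and 12 and 11 in a fit of these groups alone. With 1 library left out the counts of higher and lower genes ranged over 12 to 21 and 5 to 9 for NMDA against young cells, 9 to 20 and 2 to 9 for aged against young cells, and 2 to 4 and 3 to 8 for NMDA against aged cells.

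Among the carriers of glutamate and aspartate in the plasma membrane, 1 of 5 was higher and none lower in NMDA cells against young cells, and 4 of 5 were lower in RPCs. Over all genes, 30.6% were higher and 14.3% lower in NMDA cells, and 24.9% were lower in RPCs. Slc3a2, the heavy chain of several amino acid exchangers, averaged 500 CPM in NMDA cells, 87.7 CPM in RPCs and 416 CPM in young cells, a rise of log2 0.37 after NMDA (edgeR adjusted p = 0.039, lost under RLE and upper-quartile scaling at log2 0.31 and 0.15) and a difference of log2 -2.38 in RPCs (adjusted p = 9.3e-07). Slc7a11, the cystine and glutamate exchanger, averaged 89.5 CPM in NMDA cells, 7.64 CPM in RPCs, 134 CPM in aged cells and 44.6 CPM in young cells. It rose in aged cells (log2 1.78, adjusted p = 0.018), a call lost without aged replicate 1 (adjusted p = 0.054) or 2 (0.077), while the NMDA difference of log2 1.12 did not pass (adjusted p = 0.051). Slc1a1, the transporter EAAC1 found mainly in neurons, stood at 5.04, 11.8 and 7.01 CPM in NMDA cells, 0.66 and 1.29 CPM in aged cells, and 18.7 and 2.27 CPM in young cells. The log2 difference between aged and young cells was -3.25 (adjusted p = 0.038) and rested on young replicate 1, without which it was -1.0 (adjusted p = 0.25). The call was also lost without aged replicate 1 (log2 -2.84, adjusted p = 0.20) or 2 (log2 -3.80, adjusted p = 0.11). The vesicular transporter genes Slc17a7 and Slc17a8, which load glutamate into synaptic vesicles of neurons, averaged 310 and 33.3 CPM in NMDA cells, 0.186 and 0.453 CPM in RPCs, and 190 and 64.6 CPM in young cells. Of the 3 vesicular genes, 1 fell after NMDA, none rose, and 2 were lower in RPCs (over all genes 14.3%, 30.6% and 24.9%). Slc17a8 fell after NMDA (log2 -0.85, adjusted p = 0.035, lost without NMDA replicate 2 or 3 at adjusted p = 0.058 and 0.057), and Slc17a7 did not pass (log2 0.81, adjusted p = 0.077).

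Of 13 tested neutral amino acid and glutamine carriers, 4 were higher and 1 lower in NMDA cells, 2 higher and 1 lower in aged cells, and 6 higher and 5 lower in RPCs, each against young cells. In NMDA and aged cells these are 30.8% and 15.4% higher, where 30.6% and 21.1% of all genes were. The lower ones are 7.69% in each, where 14.3% and 5.85% of all genes were. In RPCs they are 46.2% higher and 38.5% lower, where 35.9% and 24.9% of all genes were. Slc1a4, a carrier of serine, alanine and other neutral amino acids, averaged 48.5 CPM in NMDA cells, 118 CPM in aged cells and 134 CPM in young cells, and it fell after NMDA against both young cells (log2 -1.36, adjusted p = 2.9e-04) and aged cells (log2 -1.37, adjusted p = 8.1e-04). Slc38a1, a glutamine carrier of many cells, averaged 254 CPM in NMDA cells, 416 CPM in RPCs, 341 CPM in aged cells and 212 CPM in young cells, and was higher than in young cells in all 3 comparisons (log2 0.37, 0.84 and 0.88, adjusted p = 0.0078, 4.9e-05 and 2.8e-04), although the NMDA call was lost under upper-quartile scaling (log2 0.15, adjusted p = 0.20). Slc38a2, its relative, was higher in RPCs, at 456 CPM against 110 CPM in young cells (log2 1.92, adjusted p = 1.2e-05), and averaged 112 CPM in NMDA cells and 116 CPM in aged cells. Slc1a5, the glutamine carrier of dividing cells, averaged 43.1 CPM in RPCs against 1.18 CPM in young cells (log2 5.15, adjusted p = 0.0065), and 4.85 CPM in NMDA cells, where the difference did not pass (adjusted p = 0.13). Slc7a8, an exchanger of neutral amino acids, averaged 464 CPM in NMDA cells, 8.75 CPM in RPCs and 319 CPM in young cells, and was lower in RPCs than in young cells (log2 -5.33, adjusted p = 6.3e-07). Slc38a10 was lower in aged cells, at 95.7 CPM against 155 CPM in young cells (log2 -0.51, adjusted p = 0.029), a call lost without aged replicate 1 (adjusted p = 0.091), aged replicate 2 (0.17) or young replicate 1 (log2 -0.28, adjusted p = 0.089).

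Of 24 enzymes that form or use glutamate, 8 were higher and 4 lower in NMDA cells, 7 higher and 2 lower in aged cells, and 10 higher and 10 lower in RPCs, each against young cells. In NMDA and aged cells these are 33.3% and 29.2% higher, where 30.6% and 21.1% of all genes were, and 16.7% and 8.33% lower, where 14.3% and 5.85% were. In RPCs they are 41.7% higher and 41.7% lower, where 35.9% and 24.9% of all genes were. The cytosolic and mitochondrial aspartate aminotransferases Got1 and Got2 averaged 68.3 and 82.7 CPM in NMDA cells, 26.0 and 34.1 CPM in aged cells, and 32.9 and 35.2 CPM in young cells. Both rose after NMDA against young cells (log2 1.16 and 1.35, adjusted p = 0.0051 and 0.0019) and against aged cells (log2 1.31 and 1.20, adjusted p = 0.0069 and 0.0073), the calls against aged cells being lost without aged replicate 2 (adjusted p = 0.083 and 0.080) and for Got2 also without aged replicate 1 (0.056). Aldh18a1, which starts proline synthesis from glutamate, averaged 57.3 CPM in NMDA cells, 71.8 CPM in RPCs, 19.5 CPM in aged cells and 12.2 CPM in young cells, and was higher than in young cells in NMDA cells (log2 2.34, adjusted p = 2.0e-05) and RPCs (log2 2.43, adjusted p = 4.0e-06). Psat1, an aminotransferase of serine synthesis that uses glutamate, averaged 153 CPM in NMDA cells, 115 CPM in RPCs, 280 CPM in aged cells and 341 CPM in young cells, a fall after NMDA of log2 -1.05 (adjusted p = 1.5e-04). Gclc, which uses glutamate for glutathione, averaged 51.2 CPM in NMDA cells, 66.1 CPM in aged cells and 33.1 CPM in young cells and rose in both (log2 0.74 and 1.19, adjusted p = 0.0010 and 2.1e-04).

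Abat, the GABA transaminase, averaged 343 CPM in NMDA cells, 501 CPM in aged cells and 191 CPM in young cells. Its rise in aged over young cells was log2 1.58 (adjusted p = 4.6e-04). Gfpt1, which uses glutamine for hexosamine synthesis, averaged 157 CPM in NMDA cells, 214 CPM in aged cells and 175 CPM in young cells. NMDA cells were below aged cells (log2 -0.53, adjusted p = 0.0030), and aged cells above young cells (log2 0.48, adjusted p = 0.0052). Cad, which starts pyrimidine synthesis from glutamine, averaged 64.6 CPM in NMDA cells, 367 CPM in RPCs, 55.1 CPM in aged cells and 117 CPM in young cells, and was lower than in young cells in NMDA cells (log2 -0.75, adjusted p = 0.0048) and aged cells (log2 -0.90, adjusted p = 0.0058, and 0.051 without aged replicate 2). Bcat2, a mitochondrial branched-chain aminotransferase, averaged 18.4 CPM in NMDA cells, 12.7 CPM in aged cells and 38.1 CPM in young cells and fell in both (log2 -0.95 and -1.40, adjusted p = 0.0097 and 0.0048). Of 4 mitochondrial carriers, 2 were higher in NMDA cells, 1 higher in aged cells, and 1 higher and 2 lower in RPCs, each against young cells. Over all genes, 30.6% were higher in NMDA cells, 21.1% higher in aged cells, and 35.9% higher and 24.9% lower in RPCs. Slc25a13, a mitochondrial aspartate and glutamate carrier, and Gad2, a glutamate decarboxylase of GABA neurons, had 0 counts in both young libraries. Gad2 was not particular to NMDA cells, averaging 5.35 CPM in RPCs and 1.25 CPM in aged cells. Its difference between aged and young cells was called (edgeR adjusted p = 0.0052), but not in a fit of these groups alone (0.10). With a floor of 3 counts over the pooled young libraries, Slc25a13 was at least 44.5-fold higher in NMDA cells (5.29 CPM), at least 460-fold higher in RPCs (54.3 CPM) and at least 12.9-fold higher in aged cells (1.51 CPM), and Gad2 at least 51.9-fold higher in NMDA cells (6.14 CPM). These bounds cover counting error only, and a 0 in a young library can differ from the other young library by more than that. Slc7a6 had 0 and 168 counts, and Gfpt2 0 and 190, in young replicates 1 and 2. The bounds may therefore be too high.

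Genes whose levels across the 10 libraries were most like a member's were looked up by Pearson's r of log2(CPM + 1) over the 10915 genes whose mean reached 8 CPM, as a description without a test, since the 10 libraries form 4 groups. For Glul these were Slco1c1 (r = 0.997), Wfikkn2 (0.997) and Syt10 (0.996). Slco1c1 averaged 10.8 CPM in NMDA cells, 0.145 CPM in RPCs, 112 CPM in aged cells and 145 CPM in young cells. For Slc1a3 they were Tmbim6, Htra1 and Tspan7 (each 0.999), for Slc1a2 they were Tacc1 (0.997), Rhbdd2 (0.996) and Cadm1 (0.996), and for Slc38a3 they were Chadl (0.998), Slc41a1 (0.997) and Pdgfrb (0.997). Cadm1 averaged 505 CPM in NMDA cells, 90.7 CPM in RPCs, 1028 CPM in aged cells and 417 CPM in young cells, thus in the same order as Slc1a2 but over a narrower range. Glud1 was followed by Arl6ip5 (0.991), Abca3 (0.989) and Os9 (0.987).

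The annotated starts of Glul, Slc1a3, Slc1a2 and Glud1 had low methylation in every group. For Slc1a2 the start is the outer end of its annotated span. The mouse promoter set used above places its promoter at chr2:102706188-102706437, farther inside the gene, with 1 CpG and no measured position. Within 1000 bp of the start, the mean methylation level of Glul over 58 positions was 0.525% in NMDA cells, 1.59% in RPCs, 0.272% in aged cells and 3.90% in young cells. For Slc1a3 over 26 positions it was 0.804%, 1.34%, 0.459% and 3.72% in the same groups, for Slc1a2 over 38 positions 1.08%, 1.31%, 0.318% and 2.89%, and for Glud1 over 10 positions 2.58%, 1.57%, 1.84% and 3.87%. The young value was the highest of the 4 at each of these starts, and over all 443850 positions of the genome with a pooled level under 5% the young libraries also averaged more, 1.99% to 2.80%, against 0.772% to 0.949% in NMDA cells, 0.569% to 1.37% in RPCs and 0.389% to 0.476% in aged cells. Exact two-sided permutation of libraries gave p = 0.1 for the Glul, Slc1a3, Slc1a2 and Glud1 windows between NMDA and young cells, the smallest that 3 against 3 libraries allow. The strand of Slc38a3 is not given in the annotation, and only its higher-coordinate end had measured positions, 3 of them, at 14.9% in NMDA cells, 5.92% in RPCs, 9.97% in aged cells and 21.3% in young cells. The 15 positions in the last 8 CpGs of the printed Glul stretch had group means of 0% to 5.27% in NMDA cells, 0% to 6.95% in RPCs, 0% to 0.52% in aged cells and 0.32% to 15.6% in young cells, the highest at the position 95 bp before the start.

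Some regions inside the genes differed more between RPCs, NMDA cells and young cells than the starts did. The counts below cover the whole spans, start positions included. The 5 spans held 219 positions measured in all 12 libraries, of which 216 were tested. A position was called with an adjusted p under 0.05 and a difference of at least 10 percentage points. In NMDA against young cells 10 of them were called (7 higher, 3 lower), which is 4.63% where 3.17% of all tested positions were called, 2.08% higher and 1.09% lower. All 3 lower ones lay within 1000 bp of a start, 2 in Glul and 1 in Slc1a3. Between RPCs and young cells 26 were called, 23 higher and 3 lower, which is 12% where 7.52% were called over all, 4.81% higher and 2.71% lower. Of the 3 lower ones, 2 lay within 1000 bp of the Glul start and 1 within 1000 bp of the higher-coordinate end of Slc38a3. Between aged and young cells 8 were called, all lower, which is 3.70% where 4.04% were called over all, 0.448% higher and 3.59% lower. Within 1000 bp either side of the starts, 5 positions of Glul and 1 of Slc1a2 were called lower in aged cells. Calls in aged cells thus lay mostly near the starts. Between NMDA and aged cells 6 were called, all higher and all in Glul, which is 2.78% where 0.729% were called over all, 0.712% higher and 0.0164% lower. Glul held 15 of the 26 positions that differed in RPCs, Slc1a3 7 and Slc38a3 4, while Slc1a2 with 55 tested positions and Glud1 with 9 held none. These counts moved with single libraries. Between NMDA and young cells 4, 0 and 2 positions were called without NMDA replicate 1, 2 and 3, and between NMDA and aged cells 2, 1 and 1 without the same libraries and 3 and 2 without aged replicate 2 and 3. Between aged and young cells 13 were called without young replicate 1 or 3 and 5 without aged replicate 1.

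Groups of at least 3 positions with gaps of at most 300 bp were averaged as regions, a rule chosen after the values had been seen, so that the region levels are given without a test. One region of 12 positions from 7 CpGs, at chr1:153904445-153904687 and 4516 bp inside the gene, was methylated at 72.9%, 68.0% and 83.7% in NMDA cells, 96.1%, 97.3% and 92.7% in RPCs, 28.1%, 26.1% and 26.4% in aged cells, and 42.5%, 30.8% and 37.8% in young cells. Each NMDA library lay above all aged and young libraries and below all RPC libraries. Of its positions, 10 of 12 were called higher in RPCs than in young cells, 2 of 12 higher in NMDA cells than in young cells, 6 of 12 higher in NMDA than in aged cells, and 1 lower in aged than in young cells. The position 153904496 (plus strand) stood at 50%, 59.1% and 68.8% in NMDA cells, 94.4%, 93.8% and 81.0% in RPCs, 0%, 7.50% and 2.94% in aged cells, and 0% in each young library, with at least 14 reads in every library. Its pooled difference was 57.4 points between NMDA and young cells (adjusted p = 0.012) and 54.8 points between NMDA and aged cells (adjusted p = 0.0091) in the quasi-binomial model. With at least 20 reads required, no span position was called between NMDA and aged cells. Without NMDA replicate 2, none was called between NMDA and young cells. A smaller rise lay nearer the start, at position 153901740, with 22.6% in NMDA cells, 26.8% in RPCs, 8.28% in aged cells and 4.13% in young cells, where NMDA and young cells differed by 18.3 points (adjusted p = 0.0098). Whether these positions are exonic or intronic was not assigned here. The RNA of Glul was lower in NMDA cells and RPCs, the groups in which this region was more methylated, but RNA and DNA came from different libraries and 4 groups do not allow a test of that relation.

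**Figure D4:**
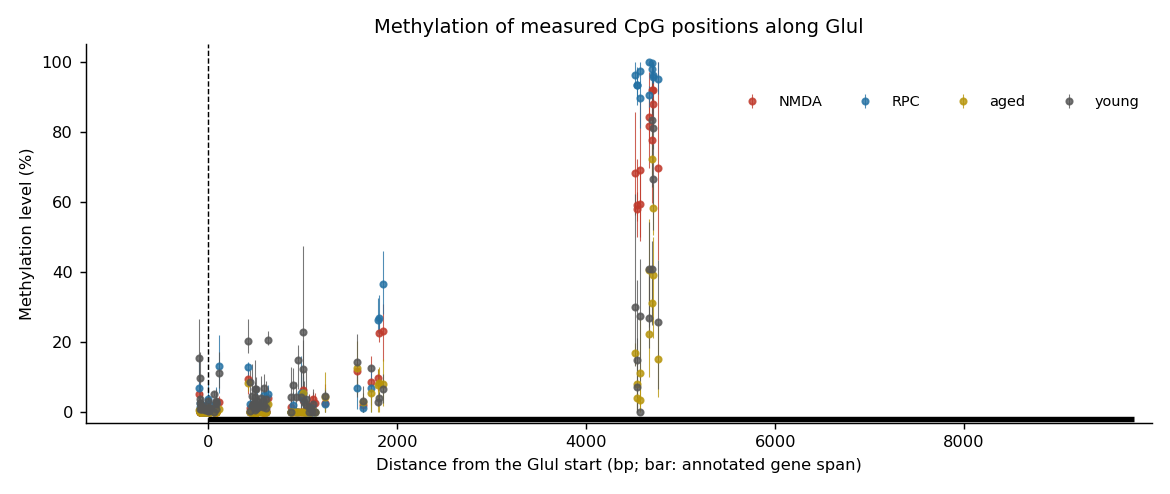
Methylation level (%) of each measured CpG position along Glul by distance from its start in bp, as the mean of 3 libraries with a line from the lowest to the highest, with the gene span as a black bar. Positions near the start are low in all groups, and those about 4516 bp inside are high in RPCs (mean 95.4%) and NMDA cells (74.8%) and lower in aged (26.9%) and young (37.0%) cells.

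In Slc1a3, 4 positions at chr15:8663496-8663608, 47199 bp inside the gene, were methylated at 17.8%, 15.6% and 30.9% in NMDA cells, 91.0%, 82.5% and 92.5% in RPCs, 6.05%, 12.1% and 9.54% in aged cells, and 17.4%, 16.1% and 16.4% in young cells. All 4 were called higher in RPCs than in young cells and none in NMDA cells, so here RPCs stood apart from all Müller groups. A single position at 8685123 showed 75.5% in NMDA cells, 68.9% in RPCs, 42.9% in aged cells and 28.5% in young cells, a difference of 47.2 points between NMDA and young cells (adjusted p = 0.020). The region of 3 positions that holds it averaged 59.8% in NMDA cells, 36.7% in RPCs, 46.4% in aged cells and 31.5% in young cells. There RPC libraries (30.3% to 42.3%) overlapped young libraries (26.1% to 37.5%). In Slc38a3, 4 positions at chr9:107656210-107656319 were at 66.5%, 61.4% and 64.3% in NMDA cells, 87.7%, 87.3% and 89.4% in RPCs, 41.6%, 48.5% and 59.6% in aged cells, and 30.7%, 41.8% and 38.7% in young cells. Of these, 3 were called higher in RPCs and 1 in NMDA cells, each against young cells. NMDA libraries lay above all aged and young libraries and below all RPC libraries, and aged and young libraries overlapped. Slc1a2, whose RNA differed most between the Müller groups, had 5 measured positions far inside the gene, at chr2:102739988-102740217, with means of 81.2% in NMDA cells, 93.4% in RPCs, 88.1% in aged cells and 87.6% in young cells and none called.

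**Figure D5:**
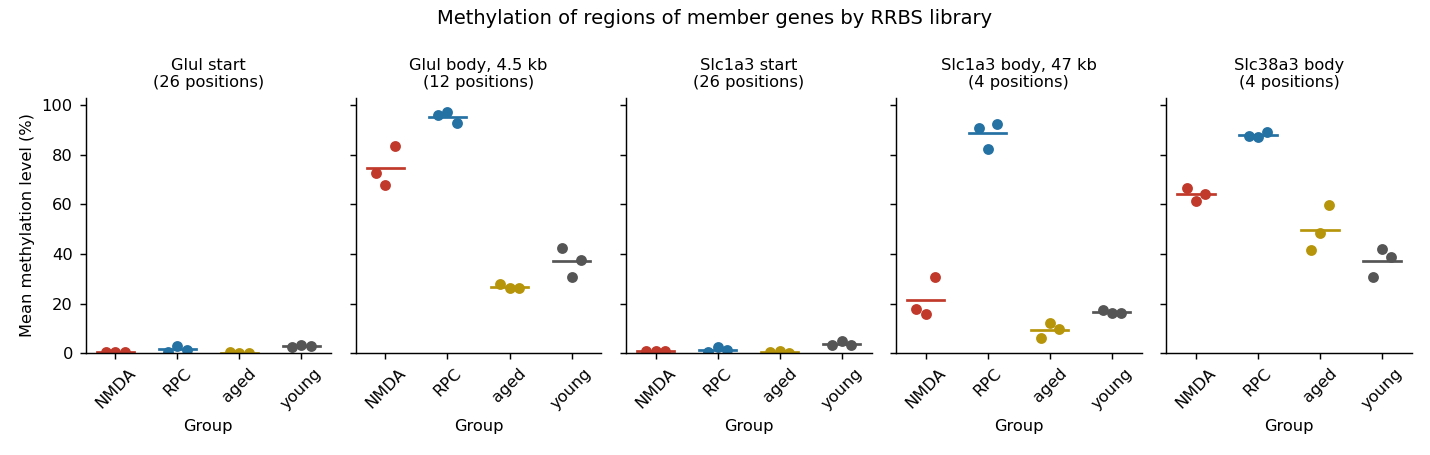
Mean methylation level (%) per RRBS library, with the group mean as a line, of regions at the start of Glul and Slc1a3 and inside Glul, Slc1a3 and Slc38a3. The regions inside genes are those with the most positions called higher in RPCs than in young cells. The start regions lie under 5% in every library, and the Glul region inside the gene lies at 68.0% to 83.7% in NMDA cells against 30.8% to 42.5% in young cells. The 3 regions inside genes are highest in RPCs, the group used to choose them. Not every region inside a gene was, such as chr15:8685123-8685248 in Slc1a3 (59.8% in NMDA cells, 36.7% in RPCs).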

How the data were processed

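RNA was measured in 10 libraries and DNA methylation in 12. The authors' deposited table holds raw read counts per gene for each RNA library. The submitters' processing notes name HISAT2 2.0.4, Trim Galore 0.4.3, Bismark 0.16.3, methylKit 1.4.0 and the builds mm10 and GRCm38, while the counting tool and its strand setting are not given in the sources used here. For RRBS, the authors deposited tables that give, per the file headers, the coverage of each cytosine position and its percent of methylated and unmethylated reads, and they list only positions with at least 10 reads (1338829 to 2532174 a library).

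Counts were tested with edgeR 4.0.16 (R 4.3.3, limma 3.58.1) by the quasi-likelihood test, with TMM scaling and filterByExpr, in 1 fit of all 10 libraries with 6 residual degrees of freedom. P-values were adjusted by Benjamini-Hochberg over 18931 genes, and calls used an adjusted p under 0.05. CPM are counts scaled to a common library total. The 95% intervals use the t distribution with edgeR's total degrees of freedom. For RRBS, 718061 of 743808 autosomal positions present in all 12 libraries were tested by a quasi-binomial model with moderated overdispersion (scipy 1.17.1, numpy 2.4.6). Both tests were checked on simulated data. The RNA simulation used the same spread in every group, smaller than that of these libraries, so it does not show the error rate here. Samples were grouped by their labels. Nothing says which libraries came from separate animals beyond the labels' statement of biological replicates for young and aged RNA and for RRBS, so p-values for NMDA cells and RPCs may measure technical spread.

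The members and gene lists were chosen with earlier results of these data known. Named genes were the 5 members, up to 4 called list genes per comparison and direction with the smallest adjusted p and no overlap between groups, and 8 genes near a member in role, of which 1 is not reported here. Counts over gene spans, the region rule and the position examples were added after seeing the data. Alternatives were RLE and upper-quartile scaling, other filters, DESeq2 1.42.0, a fit of the compared groups alone, library size without Glul, a replicate block and leaving out each library, and for RRBS other read minimums, models, thresholds and windows.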

Additional observations from a re-analysis of the deposited data

How the results depend on the processing

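Of 390 member log2 differences recomputed under the alternatives, 374 kept their direction and their side of the threshold. Between NMDA and young cells, Slc1a3 passed under RLE scaling (-0.33), upper-quartile scaling (-0.49), a filter of 5 CPM (-0.31) and DESeq2 (-0.33), and Glud1 changed sign under upper-quartile scaling (-0.12). Between aged and young cells, DESeq2 called 2 members, adding Slc1a3 (-0.28). Without a filter Glul was 0.041 and Glud1 0.066, and with 1 library left out they ranged over -0.21 to 0.17 and -0.10 to 0.095. Between NMDA and aged cells, leaving out 1 library gave Slc1a3 -0.090 to 0.027 and Slc38a3 -1.19 to -0.90. The cause of these changes was not tested. RNA libraries with the same replicate number showed little shared deviation from their group means (correlations of -0.061 to 0.089). Between aged and young cells, with 2 libraries each, both numbers must give the same correlation. Libraries with different numbers were not compared, so whether the numbers mark pairs was not settled. With a replicate block, Slc38a3 between NMDA and aged cells was -1.08 (adjusted p = 0.062), and the block changed no other member call. The median log2 difference of all genes between aged and young cells was 0.13, and 0.00 under upper-quartile scaling.

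Called positions within 1000 bp of the gene starts, or of the measured end of Slc38a3, numbered 3 for NMDA, 3 for RPC and 6 for aged cells against young cells. For RPC, 1 of these was at Slc38a3. Tested positions there were 56 for Glul, 26 for Slc1a3, 38 for Slc1a2, 3 for Slc38a3 and 9 for Glud1. Over all tested positions 3.17%, 7.52% and 4.04% were called. Those called in the gene spans numbered 10, 26 and 8, with 6 in the spans between NMDA and aged cells. With at least 20 reads the start counts were 1, 1 and 3 and the span counts 6, 12 and 5, with 0 between NMDA and aged cells. A plain logistic model gave 6 and 5 starts for NMDA and RPC, and spans of 34, 40 and 32, with 30 between NMDA and aged cells. With no minimum difference the starts were 13, 15 and 41 and the spans 23, 40 and 47. With 25 points and an adjusted p under 0.01 the starts were 0, 1 and 0, the spans 0 for NMDA and 0 for aged cells, and 1 between NMDA and aged cells. Windows of 500 bp gave 1 for NMDA and 0 for RPC, and windows of 2000 bp gave 6 for RPC. Leaving out 1 library gave starts of 0 to 4 for NMDA and 1 to 4 for RPC, and spans of 0 to 13 for NMDA, 5 to 13 for aged cells and 1 to 5 between NMDA and aged cells. The replicate block gave spans of 15 for NMDA, 29 for RPC and 12 for aged cells, and 8 between NMDA and aged cells. Median coverage per region ranged from 21.0 reads at Glud1 to 178.75 reads inside Glul.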
